A study of Homo sapiens with 6 samples.

Results

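The genes described here are 36 genes linked to the transcription factor ATF4: the factor and its partners, its feedback genes, the enzymes of serine and other amino acid synthesis, and amino acid transporters. They were chosen by name, with earlier results of these data known. Each was read from its probe set of highest mean over the 6 arrays among those that name it alone. Of the 36, 35 were measured among 19775 genes, and no probe set named GPT2 alone. The cells were HaCaT, human skin keratinocytes that became immortal in culture, and were held for 12 h either in a negative-pressure incubator at a gradient of 125 mmHg (3 cultures) or, as controls, at ambient pressure (3 cultures). Both groups are the same unmodified line in the same serum-containing medium, and pressure is the only difference that the labels give. RNA of each culture was hybridised to an Affymetrix array, and values are log2 intensities summarised per probe set by the authors. The comparison asked which transcripts differed after exposure to negative pressure, the condition applied to wounds in vacuum dressings.

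ATF4 is a basic leucine zipper factor whose mRNA is translated preferentially when kinases that sense stress phosphorylate the translation initiation factor eIF2 on its alpha subunit. GCN2, encoded by EIF2AK4, responds to uncharged transfer RNA when amino acids run short, and PERK, encoded by EIF2AK3, to unfolded protein in the endoplasmic reticulum. With C/EBP family partners, ATF4 binds composite C/EBP-ATF response elements and drives genes for amino acid synthesis, uptake and redox balance, and also genes that dampen the response. ATF4 activity is set largely by translation, so its mRNA level does not report its activity.

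The core of such a response element, the letters TGATGNAA, was searched on both strands in the RefSeq promoter windows of the GRCh38.p14 build, which run from 250 bases before to 50 bases after a gene's start. Windows were in the table for 28 of the 35 measured members, 50 windows in all, and 9 members (32.1%) held the letters in at least 1 window. Of 15384 genes on the array with a window, 556 (3.61%) held them, and of 35116 windows of the same length in the whole table, 3.62% did. Members had more windows per gene than other genes, but by window the shares were 18% (9 of 50) for members and 2.71% (583 of 21490) for genes on the array. The members were listed for their link to ATF4, so this share is a description and not independent evidence. The windows of ASNS, JDP2 and CHAC1 are shown in full because these genes both held the letters and passed the test below. Capitals mark the match, written as TGATGNAA or, where it lies on the other strand, as TTNCATCA.
ASNS promoter (chr7:97872359-97872658, minus strand): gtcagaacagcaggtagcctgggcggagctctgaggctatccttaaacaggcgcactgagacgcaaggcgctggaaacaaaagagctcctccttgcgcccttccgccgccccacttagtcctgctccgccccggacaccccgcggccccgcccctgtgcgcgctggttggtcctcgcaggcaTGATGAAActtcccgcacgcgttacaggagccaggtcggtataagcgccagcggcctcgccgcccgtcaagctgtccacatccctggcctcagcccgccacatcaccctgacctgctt
JDP2 promoter (chr14:75427772-75428071, plus strand): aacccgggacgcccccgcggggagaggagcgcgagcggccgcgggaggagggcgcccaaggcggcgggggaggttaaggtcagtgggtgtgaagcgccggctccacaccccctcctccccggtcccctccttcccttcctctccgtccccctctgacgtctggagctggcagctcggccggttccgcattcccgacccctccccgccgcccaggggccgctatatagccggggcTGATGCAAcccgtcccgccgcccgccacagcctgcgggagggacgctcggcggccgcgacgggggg
CHAC1 promoter (chr15:40953221-40953520, plus strand): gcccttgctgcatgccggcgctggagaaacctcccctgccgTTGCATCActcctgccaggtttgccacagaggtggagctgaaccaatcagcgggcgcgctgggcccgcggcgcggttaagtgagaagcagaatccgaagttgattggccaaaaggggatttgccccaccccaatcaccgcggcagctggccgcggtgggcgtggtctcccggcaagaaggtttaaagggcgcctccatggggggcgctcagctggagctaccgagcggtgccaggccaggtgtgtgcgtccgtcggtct
The match began 68 bases before the start in ASNS, 16 in JDP2 and 209 in CHAC1. Only 1 motif was searched, so no overlap with another was examined.

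The other 6 members that held the letters did not pass the test, and the surroundings of their matches are shown for comparison with the 3 above.
CEBPG (chr19:33374055-33374094, plus strand): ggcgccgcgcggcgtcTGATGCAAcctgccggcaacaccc
SLC1A5 (chr19:46784888-46784927, minus strand): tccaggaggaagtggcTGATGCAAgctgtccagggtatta
SLC1A4 (chr2:64989376-64989415, plus strand): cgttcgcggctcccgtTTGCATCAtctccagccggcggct
SLC3A2 (chr11:62881720-62881748, plus strand): taatgtgcaggactccTTACATCAgctcc
BCAT1 (chr12:24949126-24949165, minus strand): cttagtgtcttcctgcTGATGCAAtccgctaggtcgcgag
SLC7A1 (chr13:29595658-29595697, minus strand): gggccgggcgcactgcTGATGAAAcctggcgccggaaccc
The match began 42 bases before the start in CEBPG, 97 in SLC1A5, 7 in SLC1A4 and 48 in BCAT1, and after the start in SLC3A2 and SLC7A1. The SLC3A2 stretch ends with its window. BCAT1, CEBPG and SLC1A5 carried the same 8 letters as JDP2, TGATGCAA, CHAC1 and SLC1A4 carried them on the other strand, and SLC7A1 carried those of ASNS, TGATGAAA. The 9 members with the letters had a median log2 change of 0.33 (range -0.012 to 1.17), against 0.36 (-0.28 to 0.93) for the 19 members whose windows held none. PHGDH and CEBPB, which also passed the test, were among the 19. Members with and without the letters were thus found both among those that passed and among those that did not.

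Replicate 3 stood apart from replicates 1 and 2 in both groups: across probe sets, Pearson's r was 0.996 between replicates 1 and 2 under negative pressure and 0.997 at ambient pressure, but 0.989 to 0.992 for pairs with replicate 3. The counts of called genes among the members and the pathway lists are also given without both replicate 3 arrays and with the replicate number as a block in the fit. As a sign of RNA quality, ACTB probes at the 3' end read 0.69 ± 0.24 above those at the 5' end under negative pressure and 0.54 ± 0.25 at ambient pressure (SD, n = 3), with p = 0.5 in an exact permutation test taken two-sided, where 0.1 is the smallest p possible. The like reading for GAPDH was 0.10 ± 0.057 and 0.18 ± 0.029 in the same order (exact p = 0.2). By array, in replicate order, ACTB read 0.80, 0.85 and 0.42 under negative pressure and 0.73, 0.64 and 0.27 at ambient pressure. Replicate 3 was thus the lowest of both groups. GAPDH read 0.053, 0.16 and 0.086 under negative pressure and 0.18, 0.21 and 0.155 at ambient pressure, with replicate 3 lowest at ambient pressure only. The link of these readings to replicate 3 standing apart was not tested. The 6 keratinocyte markers measured had mean values of 10.2 to 12.5 over the arrays, and none passed the test used below (1 at an unadjusted p under 0.05). Of the markers of other cells, none of 6 for fibroblasts, 4 for melanocytes and 4 for leukocytes passed at either level, with mean values of 1.80 to 6.78. Of 5 endothelial markers, CDH5 alone passed, at 4.01 ± 0.21 under negative pressure and 4.81 ± 0.093 at ambient pressure (SD, n = 3 each, limma adjusted p = 0.0325, 0.0542 without both replicate 3 arrays and 0.0656 to 0.158 without any 1 array), below the median gene mean of 4.997 in both groups. The mean of the 5 was 4.35 to 4.42 on the arrays under negative pressure and 4.46 to 4.79 on those at ambient pressure. The part of these values in the results below was not tested.

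Under negative pressure, 5 of the 35 members rose: asparagine synthetase ASNS (2.25-fold), the AP-1 repressor gene JDP2 (1.95-fold), the first enzyme of serine synthesis PHGDH (1.91-fold), the glutathione-degrading enzyme gene CHAC1 (1.68-fold) and the transcription factor gene CEBPB (1.67-fold). No member fell, and 30 did not pass (limma, adjusted p under 0.05 over 19775 genes, no block). Over all genes the test called 0.607% as higher and 0.314% as lower, 0.92% in all. In the members' direction the count of 5 of 35 thus lay above that background. The members were chosen with earlier results of these data known, so this is a description and not independent evidence. With the replicate block 12 members rose and none fell, where 2.87% of all genes were called higher and 2.06% lower (4.94% in all). Without both replicate 3 arrays, a setting added once the data had been seen, 9 rose and none fell, where 1.12% of all genes were called higher and 0.759% lower (1.88% in all). At an unadjusted p under 0.05 the counts were 18 higher and 0 lower, and 11.7% of all genes in either direction. The median log2 change of the members was 0.32, against 0.01 for all genes, and 30 members (85.7%) lay above 0, against 53.4% of all genes. In bulk RNA, more cells of a kind and more RNA per cell cannot be told apart.

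For 16 of the 35 members the 3 arrays under negative pressure lay wholly above the 3 at ambient pressure, against 10.3% of all genes, and for none did they lie wholly below, against 6.96% of all genes (17.3% did not overlap in either direction). Taken by replicate number, 26 of 35 members (74.3%) had a higher value under negative pressure in each of the 3 pairs, against 22.1% of all genes, and 3 had a lower value in each: ATF5, EIF2AK4 and ALDH1L2. The median difference of the members was 0.36 for replicate 1, 0.38 for replicate 2 and 0.22 for replicate 3.

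Leaving out negative pressure replicate 1 or 2, or ambient pressure replicate 1 or 2, ended each of the 5 calls (adjusted p from 0.0685 to 0.147). The log2 changes then lay between 0.67 and 1.23, against 0.74 to 1.17 with all arrays. Calls over all genes fell as well, from 182 with all arrays. They numbered 18 and 7 without negative pressure replicates 1 and 2 in turn, and 12 and 7 without those at ambient pressure. The loss of calls was thus not particular to the members. Over all genes 145 calls were made without negative pressure replicate 3 and 102 without ambient pressure replicate 3. Without ambient pressure replicate 3, CHAC1 and PHGDH passed and ASNS, CEBPB and JDP2 did not (adjusted p from 0.0546 to 0.0601). Without negative pressure replicate 3 all 5 passed.

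**Figure D1:**
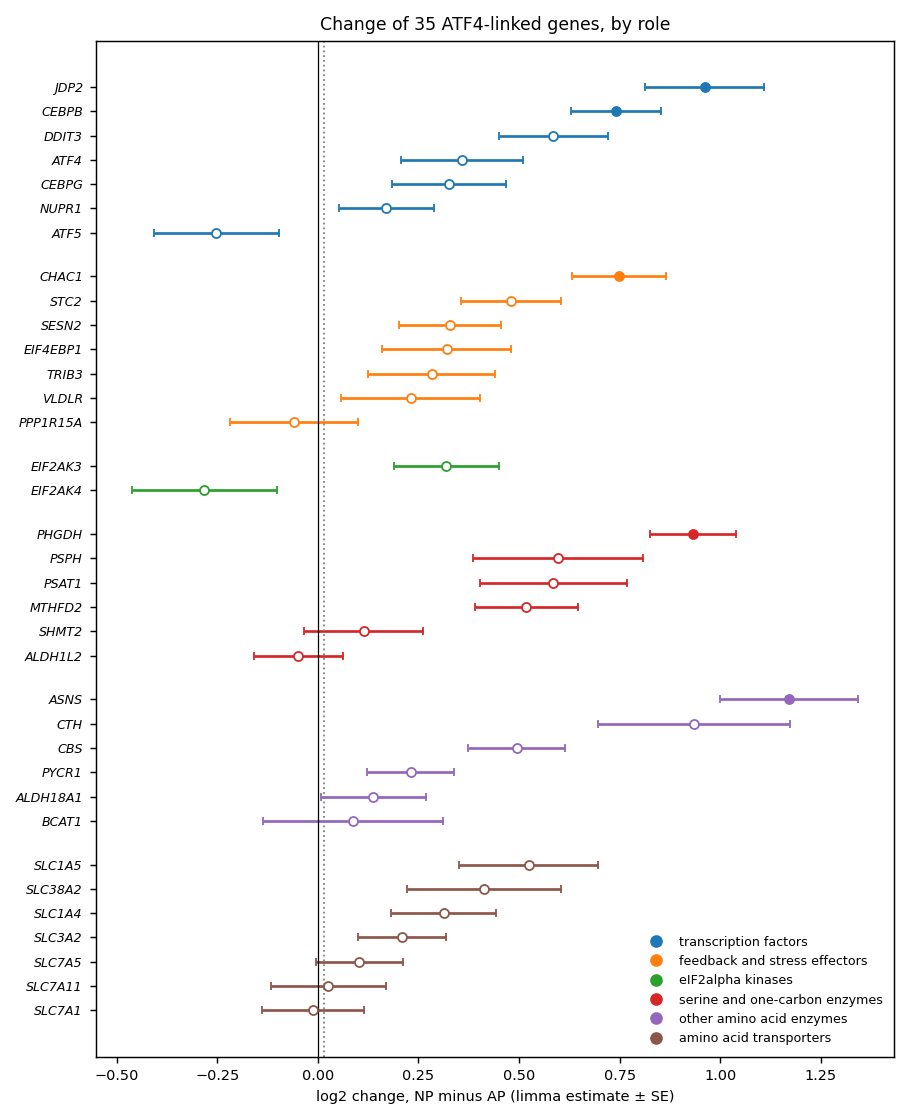
Log2 change of each of the 35 measured members (horizontal axis, negative pressure minus ambient pressure, limma estimate ± SE, 3 arrays per group), ordered within its role. Filled points passed an adjusted p of 0.05 and open points did not. The dotted line marks the median of all genes, 0.01. The 5 filled points lie between 0.74 and 1.17, and 30 of 35 points lie right of 0.

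Among the 7 transcription factors, CEBPB and JDP2 rose and 5 did not pass. CEBPB, a C/EBP partner of ATF4 and a regulator of keratinocyte differentiation, had log2 values of 10.67, 10.68 and 10.74 under negative pressure, against 9.95, 10.07 and 9.85 at ambient pressure. The groups lay apart, with little spread under negative pressure. Its log2 change was 0.74 ± 0.11 (SE, adjusted p = 0.0247). JDP2, which dimerises with JUN and represses AP-1 sites, had values of 8.42, 8.34 and 7.91 under negative pressure, against 7.30, 7.22 and 7.27 at ambient pressure. Replicate 3 under negative pressure was the lowest of its group and still above every ambient array. The change was 0.96 ± 0.15 (SE, adjusted p = 0.0251), and 1.12 without both replicate 3 arrays (adjusted p = 0.0101).

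DDIT3, encoding CHOP, the factor that follows ATF4 in lasting stress, had values of 7.55, 7.50 and 7.91 under negative pressure, against 7.01, 7.10 and 7.09 at ambient pressure. The groups did not overlap, replicate 3 under negative pressure being the highest array. Its change was 0.58 ± 0.14 (SE, adjusted p = 0.101), and it passed with the replicate block (adjusted p = 0.0176). ATF4 itself had values of 11.47, 11.40 and 10.97 under negative pressure, against 10.96, 11.00 and 10.81 at ambient pressure. Replicate 3 under negative pressure lay among the ambient arrays, so the groups overlapped, and the change of 0.36 ± 0.15 (SE) did not pass (adjusted p = 0.398, 0.104 with the block). CEBPG, the C/EBP partner with which ATF4 forms heterodimers, had values of 7.37, 7.34 and 7.08 under negative pressure, against 7.13, 6.96 and 6.72 at ambient pressure. These groups also overlapped (change 0.33 ± 0.14, SE, adjusted p = 0.419). The other probe set of CEBPG (mean 6.29) stood at 0.057, and the mean of both gave 0.19 (adjusted p = 0.580). NUPR1, a small stress-induced chromatin protein gene, averaged 4.32 ± 0.12 under negative pressure and 4.15 ± 0.10 at ambient pressure, below the median gene mean. ATF5, the relative of ATF4 tied to the mitochondrial stress response, averaged 5.43 ± 0.11 and 5.69 ± 0.28 in the same order (SD, n = 3 each). Neither passed, with changes of 0.17 ± 0.12 and -0.25 ± 0.16 (SE).

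Of the 2 kinases of eIF2 among the members, neither passed, and their estimates had opposite signs. The eIF2 kinase genes EIF2AK1 and EIF2AK2 are in a pathway list below. EIF2AK3, encoding PERK, had values of 6.95, 6.99 and 6.67 under negative pressure, against 6.69, 6.51 and 6.45 at ambient pressure. The groups overlapped by a small margin, between negative pressure replicate 3 and ambient replicate 1 (change 0.32 ± 0.13, SE, adjusted p = 0.378). EIF2AK4, encoding GCN2, averaged 7.96 ± 0.27 under negative pressure and 8.24 ± 0.28 at ambient pressure (SD, n = 3 each), a change of -0.28 ± 0.18 (SE, adjusted p = 0.642).

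Among the 7 feedback and effector genes, CHAC1 rose and 6 did not pass. CHAC1, which cleaves glutathione and is a marker of the ATF4 response, had values of 6.92, 6.85 and 6.92 under negative pressure, against 5.99, 6.19 and 6.26 at ambient pressure. The 3 arrays under negative pressure differed by less than 0.1, and all lay above the ambient ones. Its change was 0.75 ± 0.12 (SE, adjusted p = 0.0265). STC2, the secreted glycoprotein stanniocalcin-2, had values of 7.29, 7.45 and 7.23 under negative pressure, against 6.83, 6.99 and 6.70 at ambient pressure. The groups lay apart, and its change of 0.48 ± 0.12 (SE, adjusted p = 0.140) passed with the replicate block (adjusted p = 0.0270).

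SESN2, encoding sestrin 2, a leucine sensor that restrains mTORC1, had values of 6.40, 6.58 and 6.70 under negative pressure, against 6.19, 6.13 and 6.38 at ambient pressure. The groups lay apart by a small margin (change 0.33 ± 0.13, SE, adjusted p = 0.348). The pseudokinase gene TRIB3, a target of ATF4 and CHOP that inhibits ATF4, averaged 9.64 ± 0.28 under negative pressure and 9.36 ± 0.14 at ambient pressure (SD, n = 3 each), a change of 0.28 ± 0.16 (SE) that did not pass (adjusted p = 0.565). EIF4EBP1, which represses cap-dependent translation when mTORC1 is inactive, averaged 9.25 ± 0.24 and 8.93 ± 0.22 in the same order. Its spread was larger between replicate numbers than between paired differences, which were 0.29, 0.35 and 0.32, with an adjusted p of 0.502 without and 0.118 with the block. PPP1R15A, the GADD34 subunit that brings a phosphatase to eIF2, averaged 7.08 ± 0.19 under negative pressure and 7.14 ± 0.26 at ambient pressure (change -0.059 ± 0.16, SE, adjusted p = 0.947). The lipoprotein receptor gene VLDLR was dim, with a change of 0.23 ± 0.17 (SE), at 3.23 ± 0.25 under negative pressure and 3.004 ± 0.27 at ambient pressure. Its paired differences were -0.19, 0.08 and 0.81, and its estimate was -0.058 without both replicate 3 arrays.

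**Figure D2:**
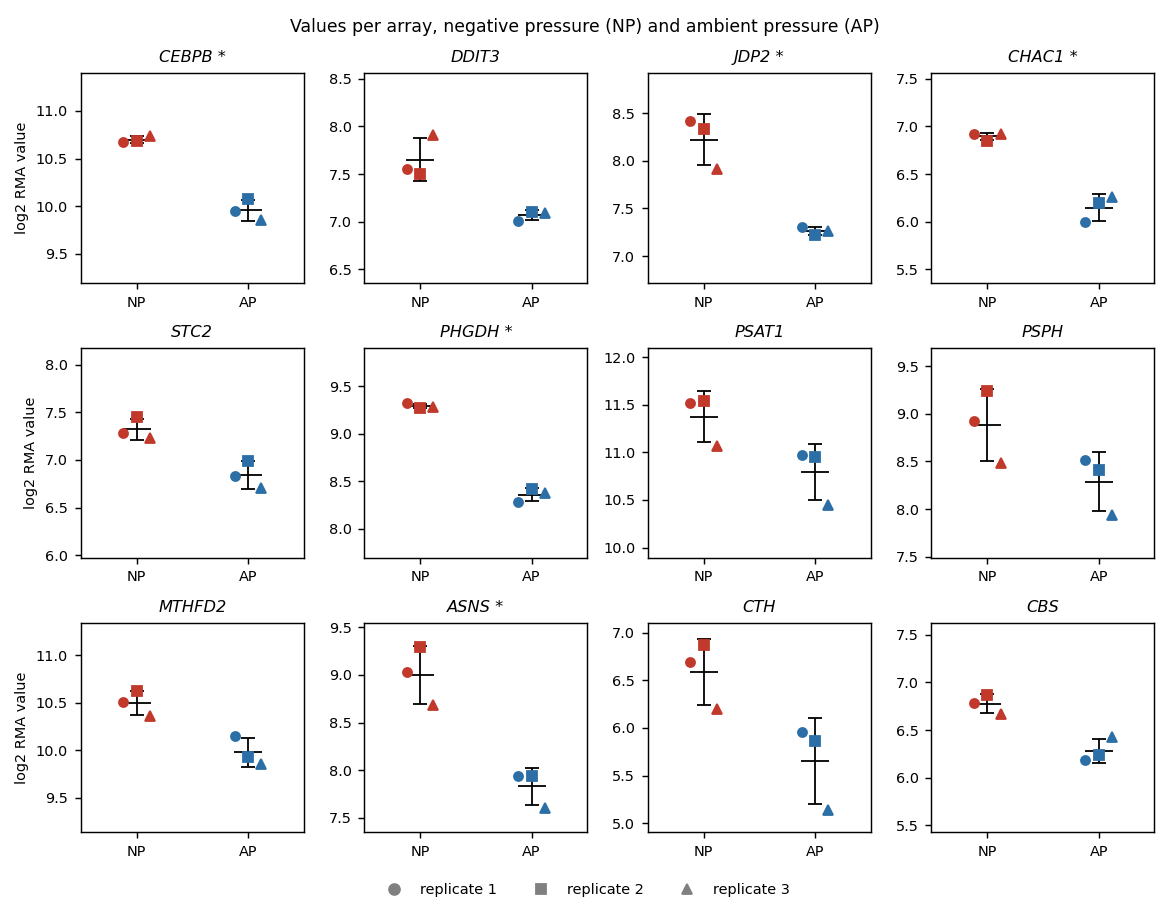
Log2 RMA value of each array (vertical axis, 2.2 log2 units in every panel) for the 12 members that passed with the replicate block, with negative pressure (NP, red) left of ambient pressure (AP, blue). Marker shapes are replicate numbers, and bars are the mean ± SD of 3 arrays. An asterisk marks the 5 genes that passed without the block. In 11 of the 12 panels the NP arrays lie wholly above the AP arrays, and in PSPH negative pressure replicate 3 lies just below ambient replicate 1.

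The serine route makes serine from a glycolytic intermediate in 3 steps, run by PHGDH, PSAT1 and PSPH, and feeds folate-bound carbon units through SHMT2, MTHFD2 and ALDH1L2 in mitochondria. PHGDH rose, and the other 5 did not pass without the block. PHGDH had values of 9.32, 9.27 and 9.28 under negative pressure, against 8.28, 8.42 and 8.38 at ambient pressure. Its groups were tight and well apart (change 0.93 ± 0.11, SE, adjusted p = 0.0127). PSAT1, the aminotransferase of the second step, had values of 11.52, 11.54 and 11.06 under negative pressure, against 10.97, 10.95 and 10.45 at ambient pressure. Replicate 3 was about 0.5 lower than the others in each group, yet the groups did not overlap, and the change of 0.59 ± 0.18 (SE, adjusted p = 0.228) passed with the replicate block (adjusted p = 0.0106).

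PSPH, the phosphatase of the last step, had values of 8.93, 9.24 and 8.49 under negative pressure, against 8.51, 8.42 and 7.94 at ambient pressure. Negative pressure replicate 3 lay just below ambient replicate 1, so the groups overlapped, while each numbered pair differed in the same direction (change 0.60 ± 0.21, SE, adjusted p = 0.296, 0.0161 with the block). MTHFD2, the mitochondrial folate dehydrogenase, had values of 10.51, 10.62 and 10.36 under negative pressure, against 10.15, 9.93 and 9.86 at ambient pressure. The groups lay apart, and the change of 0.52 ± 0.13 (SE, adjusted p = 0.123) passed with the block (adjusted p = 0.0249). SHMT2, which transfers the carbon unit from serine to folate, averaged 10.53 ± 0.26 under negative pressure and 10.42 ± 0.10 at ambient pressure (SD, n = 3 each, change 0.11 ± 0.15, SE). ALDH1L2, the mitochondrial formyl-folate dehydrogenase, was dim at 3.01 ± 0.071 and 3.06 ± 0.090 (change -0.048 ± 0.11, SE). With the block 4 of the 6 serine and folate members rose, where 2.87% of all genes were called higher. SHMT2 and ALDH1L2 had block adjusted p of 0.691 and 0.872.

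Of the 6 other enzymes measured, ASNS rose. ASNS, which makes asparagine from aspartate and glutamine, had values of 9.03, 9.29 and 8.68 under negative pressure, against 7.94, 7.94 and 7.61 at ambient pressure. The lowest array under negative pressure lay well above the highest ambient array, a change of 1.17 ± 0.17 (SE, adjusted p = 0.0220), the largest among the members. The mean with its other probe set, which is dim (mean 1.89), gave 0.48 (adjusted p = 0.150). CTH, which releases cysteine from cystathionine, had values of 6.70, 6.87 and 6.20 under negative pressure, against 5.96, 5.87 and 5.14 at ambient pressure. Replicate 3 was the lowest array of each group, and the groups did not overlap. The change of 0.93 ± 0.24 (SE) had an adjusted p of 0.139 without and 0.00148 with the block. CBS, which forms cystathionine from homocysteine and serine, had values of 6.78, 6.87 and 6.67 under negative pressure, against 6.18, 6.24 and 6.43 at ambient pressure. The groups lay apart (change 0.49 ± 0.12, SE, adjusted p = 0.118, 0.0360 with the block). The reference build places a near-identical copy, CBSL, on the same chromosome, and these probes may not tell the copies apart. Whether the cells carry such a copy was not examined.

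The remaining 3 did not pass with or without the block. PYCR1, the last enzyme of proline synthesis, averaged 7.28 ± 0.035 under negative pressure and 7.05 ± 0.080 at ambient pressure (change 0.23 ± 0.11, SE, adjusted p = 0.462). ALDH18A1, the first enzyme of that route, averaged 8.59 ± 0.20 and 8.45 ± 0.073 in the same order (change 0.14 ± 0.13, SE). BCAT1, the cytosolic aminotransferase of branched-chain amino acids, averaged 9.50 ± 0.36 under negative pressure and 9.41 ± 0.38 at ambient pressure (SD, n = 3 each, change 0.087 ± 0.22, SE). Its 3 paired differences were 0.06, 0.09 and 0.10. A probe set of nearly the same brightness (mean 9.34) stood at -0.14, and the dimmer ones (means 7.43 and 6.95) at 0.11 and 0.22.

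None of the 7 amino acid transporters passed with or without the block, and 2 had an unadjusted p under 0.05, against 11.7% of all genes. Of the 7 estimates 6 lay above 0, with a median of 0.21. SLC1A5, the glutamine carrier also called ASCT2, had values of 9.50, 9.35 and 9.37 under negative pressure, against 8.62, 8.75 and 9.29 at ambient pressure. Ambient replicate 3 was the highest of its group, just below the arrays under negative pressure. The change was 0.52 ± 0.17 (SE, adjusted p = 0.254, 0.0628 with the block), and SLC1A5 passed without both replicate 3 arrays (0.74, adjusted p = 0.0273). SLC1A4, the neutral amino acid carrier ASCT1, had values of 7.37, 7.28 and 7.36 under negative pressure, against 6.81, 7.05 and 7.22 at ambient pressure. These groups lay apart by a small margin (change 0.31 ± 0.13, SE, adjusted p = 0.398). The sodium-coupled carrier gene SLC38A2, known to respond to amino acid shortage, averaged 10.94 ± 0.34 under negative pressure and 10.53 ± 0.26 at ambient pressure (change 0.41 ± 0.19, SE, adjusted p = 0.459, 0.0516 with the block).

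SLC3A2, the heavy chain that SLC7A5 and SLC7A11 share, averaged 10.74 ± 0.074 under negative pressure and 10.53 ± 0.062 at ambient pressure, with groups that lay apart (change 0.21 ± 0.11, SE, adjusted p = 0.524). The large neutral amino acid transporter gene SLC7A5 averaged 12.18 ± 0.058 and 12.07 ± 0.070 in the same order (change 0.10 ± 0.11, SE). SLC7A11, the cystine-glutamate exchanger, averaged 7.78 ± 0.11 under negative pressure and 7.75 ± 0.23 at ambient pressure (change 0.026 ± 0.14, SE). The arginine and lysine carrier gene SLC7A1 averaged 10.46 ± 0.15 and 10.47 ± 0.13 (change -0.012 ± 0.13, SE, SD for n = 3 each throughout). The estimates of SLC7A11 and SLC7A1 changed sign under several settings, and adjusted p of 0.977 and 0.987 do not show that the groups were equal.

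**Figure D3:**
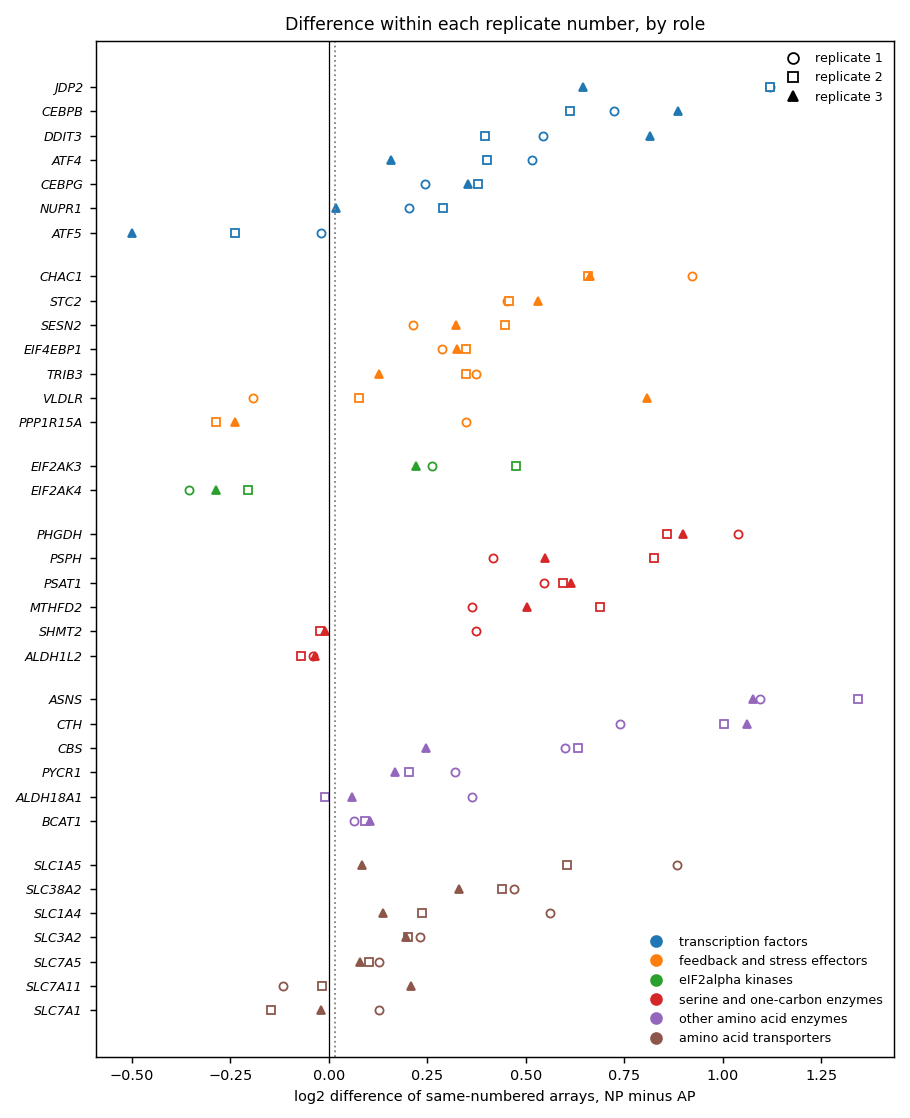
Difference between same-numbered arrays (horizontal axis, negative pressure minus ambient pressure, log2) for each of the 35 members, by role. Open circles are replicate 1, open squares replicate 2 and filled triangles replicate 3. All 3 markers lie right of 0 for 26 members and left of 0 for 3.

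Replicate 3 deviated the same way in both groups for many members. As a description chosen after the values were seen, the offset of replicate 3 from the mean of replicates 1 and 2 was computed within each group. In 18 of 35 members (51.4%) replicate 3 was the lowest array of both groups, against 25.4% of all genes, and in 6 (17.1%) it was the highest of both, against 22.3% of all genes. CTH had offsets of -0.58 under negative pressure and -0.77 at ambient pressure, BCAT1 of -0.62 under negative pressure and -0.65 at ambient pressure, PSPH of -0.60 under negative pressure and -0.52 at ambient pressure, SLC38A2 of -0.58 under negative pressure and -0.45 at ambient pressure, PSAT1 of -0.47 under negative pressure and -0.51 at ambient pressure and ASNS of -0.47 under negative pressure and -0.33 at ambient pressure. Of the 6 serine and folate members 4 were lowest in replicate 3 of both groups, as were 4 of 6 other enzymes, 4 of 7 transporters, both kinases, 2 of 7 transcription factors and 2 of 7 effectors. The effectors CHAC1, SESN2 and EIF4EBP1 were highest there. For ASNS and CTH these offsets were smaller in size than the change between pressures, and for PSAT1 and PSPH they were of similar size. These readings are of the main probe sets, and other probe sets of a gene did not always share them. For SLC7A1, 1 of the 18, the next brightest (mean 7.73) was highest in replicate 3 of both groups. It read 7.08, 7.26 and 8.63 under negative pressure and 7.57, 7.66 and 8.19 at ambient pressure. That of PSAT1 (mean 9.76) was highest in replicate 3 at ambient pressure only. That of BCAT1 (mean 9.34) was lowest in replicate 3 of both groups. That of SLC38A2 (mean 10.67) was too, but only by a small margin under negative pressure. It read 10.97, 10.96 and 10.90 under negative pressure and 10.53, 10.62 and 10.07 at ambient pressure. The labels name no batch for replicate 3.

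**Figure D4:**
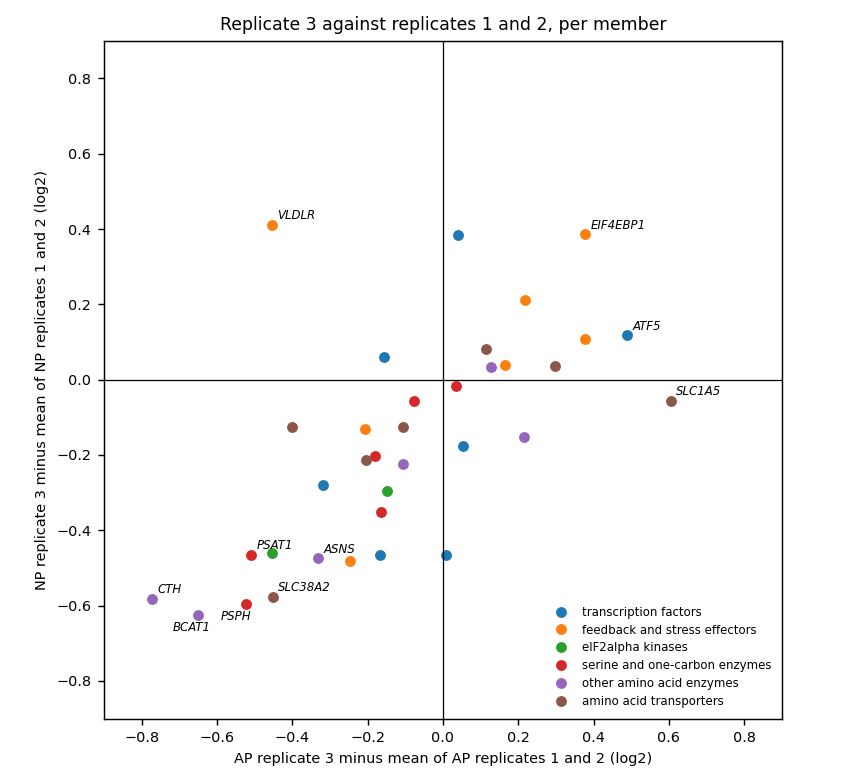
Offset of replicate 3 from the mean of replicates 1 and 2 under negative pressure (NP, vertical axis, log2) and at ambient pressure (AP, horizontal axis, log2), 1 point per member, coloured by role. CTH, BCAT1, PSPH, SLC38A2, PSAT1 and ASNS lie at lower left, low in replicate 3 of both groups, and EIF4EBP1 and ATF5 at upper right.

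Other probe sets of the members served as a further reading of the same RNA. For 23 members there were 39 other probe sets, and 30 of these had the sign of the main one. Of the 25 whose mean was above the median gene mean, 22 had it. The other probe set of PSAT1 (mean 9.76) stood at 0.89 and that of CTH (mean 5.24) at 0.81, against main values of 0.59 and 0.93. For CBS the brighter of the others (mean 5.97) stood at 0.59, for PSPH likewise (mean 7.14) at 0.50, for MTHFD2 (mean 4.95) at 0.66 and for JDP2 (mean 3.92) at 0.60. CEBPB, CHAC1 and PHGDH have 1 probe set each, so no second reading was at hand.

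To place the members in their pathway, 107 further genes were set out in 6 lists and those measured were read from the same fit. Over all genes 0.607% were called higher and 0.314% lower without the block, and 2.87% and 2.06% with it. At an unadjusted p under 0.05 the share over all genes was 11.7% in either direction. Of 16 further genes reported as ATF4 targets, 1 rose, 15 did not pass and none fell, with a median of 0.22 and 14 of 16 above 0 (4 at an unadjusted p under 0.05). The gene that rose was DDIT4, an inhibitor of mTORC1, with values of 10.54, 10.61 and 11.05 under negative pressure, against 9.53, 9.46 and 9.50 at ambient pressure (change 1.24 ± 0.15, SE, adjusted p = 0.0129). All 3 arrays under negative pressure lay above the ambient ones, replicate 3 the highest. DDIT4 did not pass without negative pressure replicate 2 (adjusted p = 0.0635), ambient replicate 1 (0.0746) or ambient replicate 2 (0.0983). INHBE, an activin subunit gene, stood at 0.78 ± 0.19 (SE, adjusted p = 0.118, 0.00424 with the block) on a dim signal, and PCK2, the mitochondrial PEP carboxykinase, at 0.60 ± 0.18 (0.202, 0.0174 with the block). Without both replicate 3 arrays 2 of the 16 rose, DDIT4 and INHBE (0.79, adjusted p = 0.0385). KLHL24, an adaptor of a ubiquitin ligase, singled out after its values were seen, has 5 probe sets that disagree. Its log2 change was 0.10 (adjusted p = 0.881) on the brightest one, 1.06 (adjusted p = 0.0108) as the mean of all 5 and 2.03 (adjusted p = 0.0256) on the one of largest variance.

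The other 5 lists had medians between -0.10 and 0.09, and no gene of theirs passed in the fit of all 6 arrays without the block. Beside the counts of these 5 lists stand the shares over all genes. These were 2.87% higher and 2.06% lower with the block, and 1.12% and 0.759% without both replicate 3 arrays. For an unadjusted p under 0.05 the share was 11.7% in either direction. Without both replicate 3 arrays 2 rose, SLC7A7 (1.07, adjusted p = 0.0249) and SLC1A3 (0.76, 0.0253), and 3 fell, SLC25A32 (-0.71, 0.0247), IMPACT (-0.57, 0.0416) and SLC36A4 (-0.57, 0.0461). Of 16 measured folate and glycine genes outside the members (18 listed) 4 had an unadjusted p under 0.05, 10 lay below 0 and the median was -0.10. With the block 3 fell: SLC25A32, the mitochondrial folate carrier (-0.80 ± 0.16, SE, adjusted p = 0.0576, 0.00312 with the block), GCSH, of the glycine cleavage system (-0.48 ± 0.12, block 0.0339), and FPGS, which traps folate in cells (-0.60 ± 0.16, block 0.0311). SLC25A32 had values of 8.18, 8.15 and 7.67 under negative pressure, against 8.90, 8.85 and 8.67 at ambient pressure, with no overlap. Of 16 measured other amino acid enzymes (19 listed) 4 had an unadjusted p under 0.05, with a median of -0.021. With the block glutamine synthetase GLUL (0.47 ± 0.17) and argininosuccinate synthase ASS1 (0.49 ± 0.15) rose, while ASL (-0.49 ± 0.11), the next enzyme after ASS1, and PYCR3 (-0.62 ± 0.14), a proline enzyme related to PYCR1, fell, with block adjusted p from 0.00946 for PYCR3 to 0.0317 for ASL.

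Among 23 genes listed as other amino acid transporters 9 had an unadjusted p under 0.05, against 11.7% of all genes in either direction. The median was 0.089. What each listed gene carries was not examined. With the block 3 rose, SLC7A7 (0.88 ± 0.17, SE, adjusted p = 0.0557, block 0.00424), the glutamate carrier SLC1A3 (0.71 ± 0.15, 0.0676, block 0.00453) and the glycine carrier SLC6A9 (0.82 ± 0.22, 0.150, block 0.0146), and 3 fell, SLC36A4 (-0.65 ± 0.22, block 0.00859), SLC7A6 (-0.58 ± 0.15, block 0.0127) and SLC43A3 (-0.55 ± 0.14, block 0.0316). Of 15 genes of eIF2, its exchange factor and its regulators 2 had an unadjusted p under 0.05, against 11.7% of all genes, with a median of 0.078. These were IMPACT and the eIF2 kinase gene EIF2AK1. EIF2AK1 had values of 9.73, 9.62 and 9.71 under negative pressure, against 9.23, 9.34 and 9.46 at ambient pressure. Its groups lay apart, and its change of 0.35 ± 0.11 (SE) did not pass (adjusted p = 0.248, block 0.102). The kinase gene EIF2AK2 stood at 0.11 ± 0.14 (SE, adjusted p = 0.872). The 1 that fell with the block was IMPACT, an inhibitor of GCN2 (-0.63 ± 0.16, SE, adjusted p = 0.139, block 0.00819). Of 15 measured genes of amino acid sensing and mTORC1 (16 listed), 2 had an unadjusted p under 0.05 (median 0.055). With the block the arginine sensor CASTOR1 rose (0.64 ± 0.16, block 0.0138) and the S6 kinase gene RPS6KB1 fell (-0.46 ± 0.15, block 0.0361).

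**Figure D5:**
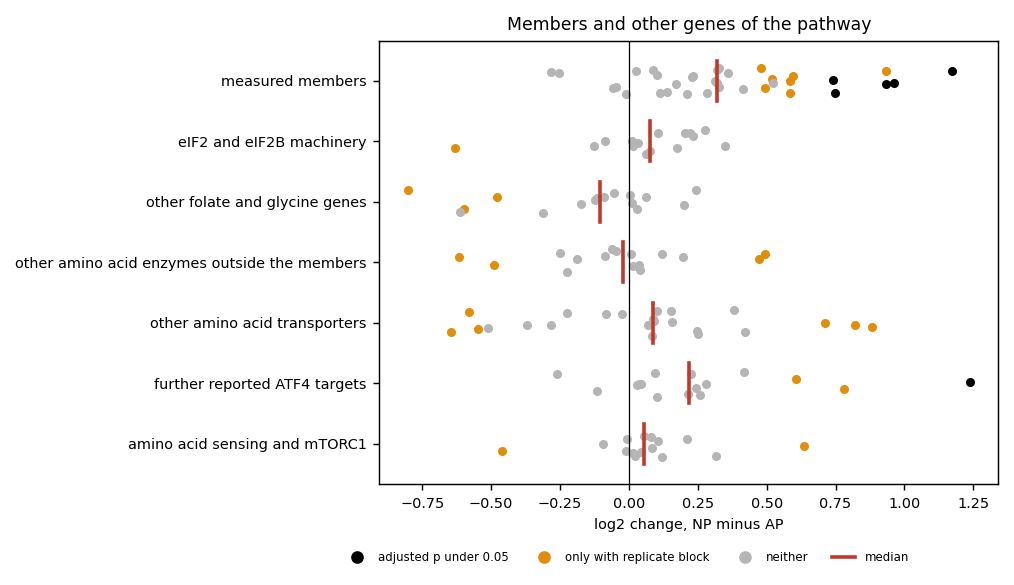
Log2 change (horizontal axis, negative pressure minus ambient pressure) of each measured gene among the members (top row) and in 6 lists of other pathway genes. Black points passed an adjusted p of 0.05, orange points passed with the replicate block alone, and red bars are medians. The members' median is 0.32 and those of the lists lie between -0.10 and 0.22.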

How the data were processed

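RNA of 6 HaCaT cultures, 3 under negative pressure and 3 at ambient pressure, was measured on arrays of 54675 probe sets. The deposited values are log2 intensities, for which the submitters' processing notes name RMA and Affymetrix Expression Console 1.2. RMA corrects background, normalizes between arrays and summarises probes, so a shift shared by all genes is removed. The values ran from 0.890 to 13.4, with array medians of 3.81 to 3.89. No scan date or batch was given in the sources used here. For arrays, their number limits the precision. The labels call the samples biological replicates.

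Groups and replicate numbers came from the sample titles. By the platform annotation 41091 probe sets name 1 gene, 1801 name several, 11721 name none and 62 are controls. Gene identifiers of 41037 matched RefSeq. Each of 19775 genes was read from its probe set of highest mean, with no filter. The pressures were compared with limma 3.58.1 (lmFit, eBayes; R 4.3.3), without a block, with Benjamini-Hochberg adjustment over all genes and a threshold of 0.05 (every adjusted p is from this fit unless another is named). The fit was tested on simulated data with independent noise in every array. That simulation held no deviation shared by the replicate 3 arrays, so it cannot show how the fit behaves with one. The members, the pathway and marker lists, the motif and the rule for naming genes (all members, with each array's value where unadjusted p was under 0.05, and in each list those past the threshold in either fit or else up to 2 of smallest p) were chosen with earlier results of these data known. CDH5, KLHL24, EIF2AK1 and EIF2AK2 were named after their values were seen.

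Deviations from the group means correlated across genes at 0.27, 0.27 and 0.53 for the arrays numbered 1, 2 and 3, all above 0.1. This check, not a day or batch named in the labels, is the basis for the fit with the replicate number as a block, which stands as an alternative to the unblocked main comparison. The highest value among replicates 1 and 2 was between negative pressure replicate 2 and ambient replicate 1 (0.43), across numbers. The other value across numbers, between negative pressure replicate 1 and ambient replicate 2, was 0.15. Deviations within a group cancel out, so replicate 3 standing apart in both groups raises the values among replicates 1 and 2 however they are matched. The check therefore cannot show that the arrays numbered 1, or those numbered 2, belong together. Differences called paired are between same-numbered arrays. Blocked values stand beside results whose call they change. Alternatives were the block, other probe set choices, 13183 genes after a filter on the mean, other normalizations, variance models, array weights, leaving out each array, and, added after seeing the data, leaving out both replicate 3 arrays.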

Additional observations from a re-analysis of the deposited data

How the results depend on the processing

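The 5 members that rose passed in the same direction with repeated quantile normalization, median centring, cyclic loess, trend and robust variance, array weights, the filter on low means, the probe set of largest variance and the replicate block. The mean of all probe sets ended the call of ASNS and gave one for PSAT1. The probe set of largest variance also called PSAT1 (0.89, adjusted p = 0.0320), which made 6 members called in that setting. The number of members called was 15 with array weights, 12 with the replicate block, 9 without both replicate 3 arrays and from 0 to 5 when 1 array was left out. All called members were higher under negative pressure. Over all genes the count was 182 (120 higher and 62 lower, but 135 and 105 with cyclic loess), with 1145 for array weights, 976 for the replicate block, 372 without both replicate 3 arrays and from 7 to 145 without 1 array, so array weights and the block raised the counts among all genes too. The members' median ran from 0.27 to 0.42 without 1 array, the highest without negative pressure replicate 3. With the block the pathway lists gave 2 calls for amino acid sensing, 1 for eIF2 machinery, 3 for further ATF4 targets, 4 for other enzymes, 6 for other transporters and 3 for folate and glycine genes, against 1 call over the 6 lists without it (DDIT4). Array weights gave 21 calls over the lists, and 7 were made without both replicate 3 arrays. Besides DDIT4, cyclic loess and repeated quantile normalization each called SLC1A3, SLC25A32 and SLC7A7, the mean of all probe sets called KLHL24, SLC25A32 and SLC7A7, the probe set of largest variance called KLHL24 and GLUL, and leaving out negative pressure replicate 3 called SLC1A3 and SLC7A7. The block changed no call of a member beyond the 7 given. Signs turned only for members that did not pass. ALDH1L2 stood at 0.045 and SLC7A1 at 0.0285 with the probe set of largest variance. SLC7A11 stood at -0.066 with array weights, -0.0044 with cyclic loess, -0.040 with the mean of all probe sets and -0.066 without both replicate 3 arrays, where PPP1R15A stood at 0.031 and VLDLR at -0.058. Without 1 array ALDH1L2 ran from -0.089 to 0.0036, BCAT1 from -0.13 to 0.30, PPP1R15A from -0.19 to 0.067, SHMT2 from -0.026 to 0.23, SLC7A1 from -0.0896 to 0.059 and SLC7A11 from -0.11 to 0.11. For these the cause was not tested. NUPR1, VLDLR and ALDH1L2 lay below the median gene mean, so their values are the least certain.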
